A study of Homo sapiens with 6 samples.

Results

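Vitamin D circulates mainly as 25(OH)D, and these data come from MDA-MB-453, a human breast cancer line of the luminal androgen receptor type that is kept as an established culture. One group of cells received 100 nM 25(OH)D for 5 days and the control group received only the solvent, with 3 mRNA libraries sequenced per group. The genes described here were nearly silent in control and present after 25(OH)D. They were selected on their counts in these same 6 libraries, as rows of the deposited table with 3 counts or fewer in each control library and at least 10 counts in each 25(OH)D library, after names containing -AS, LGALS9C and SULT1C2 were left out. This gave 41 rows of 33451 in the table. The labels do not state that the libraries came from separate cultures, so p-values measure only the spread between these libraries.

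In cells, 25(OH)D is converted by the enzyme CYP27B1 to the active hormone, which binds the vitamin D receptor, VDR. The receptor pairs with a retinoid X receptor and binds DNA at repeats of a short hexamer, and genes near such sites are switched on or off. Known targets include the calcium channel gene TRPV6 and the antimicrobial peptide gene CAMP. In this table VDR itself went from 80.8 ± 0.739 to 133 ± 6.16 CPM, that is counts adjusted for library size (mean ± SD, n = 3). Its log2 fold change was 0.72 with an SE of 0.0458 (edgeR quasi-likelihood test, adjusted p = 1.94e-08).

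The library totals lay between 33268860 and 40928176 counts. The 8 markers of luminal breast epithelium summed to 4360 to 4500 CPM in control and 4520 to 4560 CPM with 25(OH)D. The 8 markers of B cells and plasma cells summed to 0.326 to 0.769 CPM in control and 0.114 to 0.338 CPM with 25(OH)D, and 5 of them had 3 counts or fewer in every library. The 5 leukocyte markers summed to at most 0.52 CPM and the 3 endothelial markers to at most 0.489 CPM, of which 2 were listed. Of 4 basal markers, 2 were tested. TP63 was lower with 25(OH)D at a log2 fold change of −2.84, and KRT5 was not called at 1.21. KRT14 and ACTA2 were not tested, and their mean CPM went from 0.094 to 0.42 and from 0.182 to 0.319. The 2 hormone receptors ESR1 and PGR summed to at most 0.312 CPM. The 4 listed fibroblast markers summed to 36.1 to 38.7 CPM in control and 32.0 to 34.5 CPM with 25(OH)D, and the tested one of them was COL1A1.

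Of the 9177 rows with 3 counts or fewer in each control library, 44, or 0.479%, had at least 10 counts in each 25(OH)D library. The 3 left out by name were IQCA1-AS1, LGALS9C and SULT1C2. A further 7489 of the 9177 stayed at 3 counts or fewer in all 25(OH)D libraries, and 3244 had no count in any of them. The mirrored limits, present in control and silent with 25(OH)D, were met by 13 rows, among them KRT23, TP63, IGF2BP1 and SULT1E1.

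Since the counts of these 6 libraries chose the 41 rows, their difference between the groups is a description and carries no test. Summed over the 41 rows, control libraries held 22, 26 and 33 counts, and libraries with 25(OH)D held 3633, 3707 and 3368. A total of 16 rows had no count in any control library. The largest control sum over 3 libraries was 6 counts, in TREM1 and RNU6-1083P. Most control values that were not 0 were 2, with 28 values of 2 against 7 of 1 and 6 of 3. Over all rows 14976 values were 2 and 6422 were 1, so low counts came mostly in pairs, and a control value of 2 may be 1 fragment read from both ends.

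**Figure D1:**
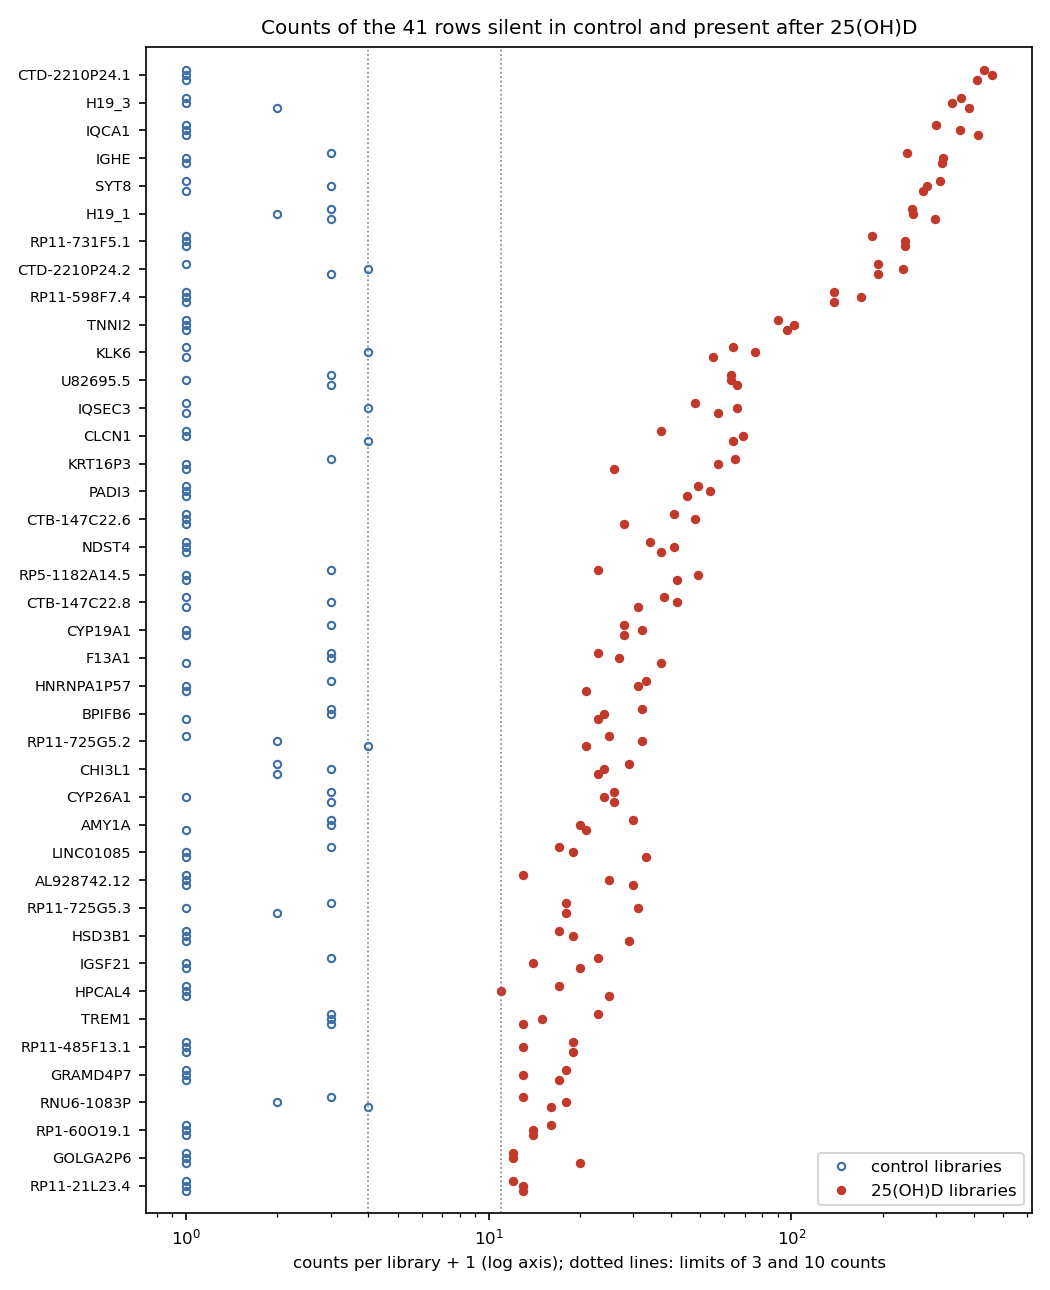
Counts + 1 per library on a log axis for the 41 rows, ordered by mean CPM with 25(OH)D. Open points are the 3 control libraries and filled points the 3 libraries with 25(OH)D, and the dotted lines mark the limits of 3 and 10 counts. The filled points run from 10 to 458 counts.

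With 25(OH)D the mean level of these rows ran from 0.33 to 12.2 CPM with a median of 0.801 CPM. There were 8 rows with a mean of at least 5 CPM, and they held 67.7% of the summed CPM. A further 12 rows lay from 1 to 5 CPM and 21 lay under 1 CPM. Scaled to row length as well, the median was 0.576 RPKM, which is CPM per kilobase of row, against a median of 2.89 RPKM over all 18183 rows that passed the low-count filter. The coefficient of variation over the 3 libraries with 25(OH)D ran from 1.35% to 45.8% with a median of 16.3%. No 1 library carried the list, since the highest value was in 25(OH)D replicate 1 for 12 rows, in replicate 2 for 9 and in replicate 3 for 20. In bulk libraries a change in the number of cells that carry a transcript and a change in its level per cell cannot be told apart. Of the 41 rows, 40 passed the low-count filter, and HPCAL4 did not.

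The limits of 3 and 10 counts cut through a continuous range. Just inside were HPCAL4, GOLGA2P6 and RP11-21L23.4, whose lowest 25(OH)D count was 10 or 11. Just outside were 13 rows with a lowest 25(OH)D count of 8 or 9, among them the amylase gene AMY1C and the retinol transporter gene STRA6. A further 25 rows were outside only because a control library held 4 or 5 counts. Among them COL11A1, a fibrillar collagen chain, had 4, 2 and 2 counts in control and 682, 652 and 610 with 25(OH)D. EPGN, an epidermal growth factor family ligand, had 4, 0 and 2 counts in control and 324, 323 and 288 with 25(OH)D. These rows had higher counts with 25(OH)D than most of the 41.

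By the GENCODE 29 annotation, 19 of the 41 were protein-coding genes, 2 were immunoglobulin constant region rows, 6 were pseudogenes, 5 were lincRNAs and 3 were antisense RNAs. The remaining rows were 2 conserved regions of the H19 transcript entered as separate rows, 1 small nuclear RNA pseudogene copy, 1 processed transcript, 1 record still to be tested experimentally and 1 row without a match. Names matched for 25 rows, position matched for 15, and RP11-731F5.1 was not matched. The rows lay on 15 chromosomes, with 7 on chromosome 1, 7 on chromosome 11 and 5 on chromosome 14. Chromosomes 6, 12 and 19 held 3 each. Joined where their spans lay within 100 kb, the 41 rows formed 33 loci, of which 27 held 1 row and 6 held more than 1, with 14 rows between them. One of the 6, that of H19_1 and H19_3, rests only on a second place that the table gives both rows on the same scaffold, since their places on chromosome 11 lie far apart.

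The strand of a read did not separate rows in these counts, although the library kit was a stranded one. Rows lying wholly inside 1 exon of another row showed a median count density of 0.202 of that row's when on the opposite strand (144 rows) and 0.162 when on the same strand (160 rows). How a read over shared bases was assigned was not tested. Among the 41, 6 rows shared exon bases with another row on the same strand, 8 on the opposite strand, and 27 shared none. For rows that share bases, a count over the shared stretch may thus belong to either row, and pairs may differ in this. GOLGA2P6, which shared 1626 exon bases with MTPAP, had 0 counts in each control library, where MTPAP had 438, 317 and 309.

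Among the protein-coding rows IQCA1 had the highest count. It encodes an AAA domain protein of the dynein regulatory complex of motile cilia, and it lay at chr2:236324147-236507542 on the minus strand. IQCA1 had 0 counts in all 3 control libraries and 411, 359 and 299 counts with 25(OH)D. The mean of 10.1 ± 1.41 CPM (SD, n = 3) was at least 130-fold higher than a floor of 3 counts in each control library allows. It shared 164 exon bases with RP11-785G17.1 and IQCA1-AS1 on the opposite strand. IQCA1-AS1, one of the rows left out by name, had 0, 0 and 0 counts in control and 120, 115 and 94 with 25(OH)D, so the antisense row was also at 0 without 25(OH)D. Of the rows around IQCA1, ACKR3, a scavenging chemokine receptor gene 60244 bases away, went the other way, from 14, 16 and 14 counts to 2, 0 and 6 (log2 fold change −2.26, SE 0.713, adjusted p = 2.43e-02).

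SYT8 and TNNI2 lay next to each other on chromosome 11 on the plus strand, SYT8 at chr11:1828307-1837521 and TNNI2 at chr11:1838989-1841680, and shared no exon base. SYT8 encodes a member of the synaptotagmin family of membrane trafficking proteins, and had 0, 2 and 0 counts in control and 271, 280 and 308 with 25(OH)D. TNNI2 encodes the troponin I of fast skeletal muscle, and had 0, 0 and 0 counts in control and 96, 101 and 89 with 25(OH)D. Their libraries with 25(OH)D were close together. The fold of SYT8 was 470 with a 95% counting interval from 130 to 3890, and TNNI2 was at least 34.7-fold higher. Such intervals and floors cover counting error only, and they take the counts as independent, so they are too narrow where both ends of 1 fragment were counted.

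On the far side of TNNI2 the next muscle gene, TNNT3, had at most 1 count in any library and LSP1 at most 3. On the SYT8 side all 4 tested rows within 100 kb were higher. CTSD, the lysosomal protease cathepsin D, had 1478, 1211 and 1350 counts in control and 10268, 11739 and 9716 with 25(OH)D, and its end lay 63733 bases from SYT8. Its level went from 34.7 ± 2.42 to 299 ± 6.62 CPM (log2 fold change 3.1, SE 0.053, edgeR adjusted p = 1.44e-14). The neighbouring interferon-induced transmembrane protein gene IFITM10 went from 79, 60 and 102 counts to 907, 992 and 877 (log2 fold change 3.65, adjusted p = 7.55e-11). RP11-295K3.1 (log2 fold change 3.13) overlapped the spans of IFITM10 and CTSD on the same strand and was higher as well. So was AC068580.6 (2.77), which lay inside the span of CTSD on the opposite strand. Whether reads of CTSD or IFITM10 entered these rows was not tested, so the 4 rows are not independent of each other.

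Immunoglobulin E is the antibody class of allergy and defence against parasites, and IGHE encodes the constant region of its heavy chain. In B cells transcription that starts upstream of a constant region gene is known to precede switching to that class. IGHE had 0, 0 and 2 counts in control and 314, 316 and 240 with 25(OH)D, a mean of 8.17 ± 0.785 CPM with 25(OH)D. RP11-731F5.1 had 0, 0 and 0 counts in control and 236, 236 and 184 with 25(OH)D. AL928742.12 had 0, 0 and 0 counts in control and 29, 24 and 12 with 25(OH)D. In all 3 rows the third library with 25(OH)D was the lowest.

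The 3 rows formed 1 locus on the minus strand of chromosome 14. IGHE lay at chr14:105599941-105601728 in 4 exons and shared 256 exon bases with RP11-731F5.1 and 235 with AL928742.12, all on the same strand. RP11-731F5.1 reached from the first constant region exon to 105605357, on the upstream side of IGHE. AL928742.12 overlapped the other end of IGHE and reached down to 105597691. The only near copy of IGHE among annotated transcripts was the pseudogene IGHEP1, which held 4.54% of the 100-base stretches of IGHE and had at most 2 counts in any library.

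Other immunoglobulin genes did not accompany IGHE. Of 22 immunoglobulin and B cell genes 21 were listed, and 9 of these had 3 counts or fewer in every library. Besides IGHE 2 were tested. XBP1, a transcription factor of secretory cells that luminal breast cells also express, had a log2 fold change of −0.55 (adjusted p = 1.98e-09). MZB1, a chaperone of antibody secreting cells, went from 358, 324 and 344 counts to 498, 465 and 405 (adjusted p = 5.06e-04). Neither passed the limit of 1 on the log2 scale. IGHM had 2, 0 and 0 counts in control and 0, 0 and 2 with 25(OH)D.

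The KLK6 locus on chromosome 19 also held 3 of the rows. KLK6 encodes a kallikrein-related serine protease, and it lay at chr19:50958631-50969673 on the minus strand. It had 0, 3 and 0 counts in control and 54, 75 and 63 with 25(OH)D, a fold of 70.1 (95% counting interval 23.6 to 343). CTB-147C22.8 had 0, 2 and 0 counts in control and 30, 41 and 37 with 25(OH)D, ran on the opposite strand and shared 401 exon bases with KLK6. CTB-147C22.6 had 0, 0 and 0 counts in control and 27, 47 and 40 with 25(OH)D. It was a single exon of 585 bases inside an intron of KLK6 on the same strand and shared no exon base with it. Whether reads of unspliced KLK6 RNA entered CTB-147C22.6 was not tested. In all 3 rows the first library with 25(OH)D was the lowest, in counts and in RPKM. The other kallikrein genes listed within 100 kb, KLK2, KLK3, KLK4, KLK7, KLK8, KLK9, KLK11 and KLK13, had at most 4 counts in any control library and at most 2 in any library with 25(OH)D.

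IQSEC3 lay at the end of the short arm of chromosome 12, at chr12:66765-178460 on the plus strand, and encodes an exchange factor for ARF GTPases found at inhibitory synapses. IQSEC3 had 0, 3 and 0 counts in control and 56, 65 and 47 with 25(OH)D. RP11-598F7.4, an antisense RNA inside its span that shared 368 exon bases with it, had 0, 0 and 0 counts in control and 137, 169 and 137 with 25(OH)D. The antisense row was the higher of this pair per length too, at 0.754 ± 0.0493 RPKM against 0.202 ± 0.0172 RPKM. Whether reads of unspliced IQSEC3 RNA entered the antisense row was not tested.

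**Figure D2:**
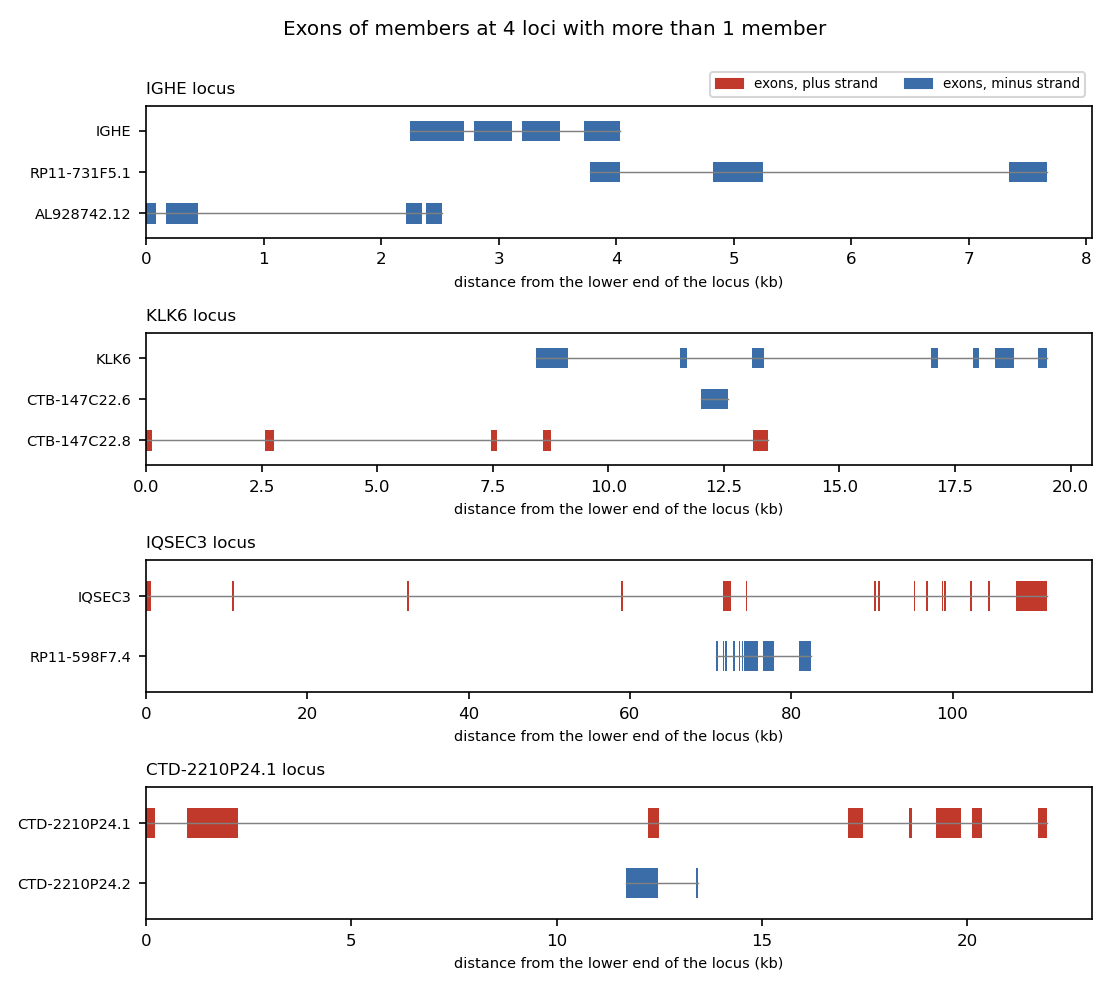
Exons of the rows at 4 loci with more than 1 of the 41 rows, drawn to scale in kb from the lower end of each locus and coloured by strand. RP11-731F5.1 and AL928742.12 overlap opposite ends of IGHE on the same strand, and CTB-147C22.8, RP11-598F7.4 and CTD-2210P24.2 run opposite to their partners.

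The highest CPM of the 41 was that of CTD-2210P24.1, a processed transcript with no known product at chr11:45722308-45744254 on the plus strand. It had 0, 0 and 0 counts in control and 408, 458 and 431 with 25(OH)D. The mean of 12.2 ± 0.861 CPM was at least 158-fold higher than the control floor. Per length its level was 3.71 RPKM, and the highest of the 41 was that of H19_1 at 52.4 RPKM. CTD-2210P24.2, a lincRNA inside its span on the opposite strand with 250 shared exon bases, had 2, 3 and 0 counts in control and 192, 233 and 192 with 25(OH)D. In RPKM both rows were lowest in the first library with 25(OH)D.

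All 4 tested rows within 100 kb of this pair were higher with 25(OH)D. CHST1, a sulfotransferase acting on keratan sulfate, went from 354, 289 and 285 counts to 1570, 1854 and 1620 (log2 fold change 2.58, SE 0.0753, adjusted p = 3.85e-12). SLC35C1, the GDP-fucose transporter of the Golgi, went from 240, 194 and 228 counts to 678, 788 and 612 (log2 fold change 1.78, SE 0.0955, adjusted p = 3.21e-09). The noncoding rows RP11-495O11.1 and DKFZp779M0652 had log2 fold changes of 3.07 and 2.47 at means of 3.63 and 0.492 CPM with 25(OH)D. RP11-495O11.1 lay inside the span of CHST1 on the opposite strand, and whether reads of CHST1 entered it was not tested.

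H19 is an imprinted noncoding RNA gene that is active in the fetus and silent in most adult tissues, and the table splits off conserved regions of it as rows of their own. H19_1 had 2, 1 and 2 counts in control and 297, 252 and 250 with 25(OH)D, and H19_3 had 1, 0 and 0 counts in control and 384, 338 and 363 with 25(OH)D. The table places H19_1 inside H19 on the opposite strand, and again on the unplaced scaffold KI270721.1. Its place in H19 is shown here since these bases tie the row to H19 (chr11:1996540-1996610, GRCh38, plus strand as the row is entered, 71 bases from the GENCODE 29 transcripts, of which 5 of 12 for H19 hold them whole):

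H19_1: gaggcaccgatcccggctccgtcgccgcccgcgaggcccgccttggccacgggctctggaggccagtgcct

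The stretch was 77.5% G or C and shorter than the reads. All 71 bases were exon bases of H19, so its counts cannot be told apart from those of H19. H19 itself was too high in control to belong to the 41, with 28, 25 and 34 counts, and had 1314, 1378 and 1258 counts with 25(OH)D. The log2 fold change of H19 was 5.63 with an SE of 0.115 (edgeR adjusted p = 9.95e-14), 49.5 times the control level. H19_2 lay just outside the limits with 3, 3 and 5 counts in control and 399, 352 and 388 with 25(OH)D.

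H19_3 was entered at chr11:83386988-83387102 and on the same scaffold as H19_1, and the counts do not say which place the reads came from. Its first place lay inside RP11-727A23.10, which had a log2 fold change of 0.77 with an adjusted p of 2.61e-01, and 67909 bases from DLG2, a synaptic scaffold gene that was lower (log2 fold change −1.40, SE 0.29, adjusted p = 1.70e-03). IGF2, the growth factor gene imprinted together with H19, did not pass the low-count filter, with 0, 4 and 4 counts in control and 2, 12 and 0 with 25(OH)D. MRPL23, 12017 bases from H19_1 and on the side of TNNI2, had a log2 fold change of −0.24 (SE 0.172, adjusted p = 3.26e-01).

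Steroid and retinoid enzymes made up 3 of the remaining protein-coding rows. HSD3B1, the 3-beta-hydroxysteroid dehydrogenase of placenta and peripheral tissues, had 0, 0 and 0 counts in control and 28, 18 and 16 with 25(OH)D. CYP19A1, the aromatase that makes oestrogens from androgens, had 0, 0 and 2 counts in control and 27, 31 and 27 with 25(OH)D. CYP26A1, which hydroxylates retinoic acid, had 2, 0 and 2 counts in control and 25, 23 and 25 with 25(OH)D. All 3 stayed under 1 CPM. HSD3B2, the adrenal and gonadal relative of HSD3B1, had at most 2 counts in any library. CYP26B1, a relative of CYP26A1 that did not meet the limits, went from 2, 2 and 8 counts to 29, 32 and 28 (log2 fold change 2.97, SE 0.529, adjusted p = 5.24e-04).

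Enzymes and proteins of skin, blood and secretions formed another group. PADI3, which converts arginine to citrulline in proteins of the hair follicle, had 0, 0 and 0 counts in control and 44, 53 and 48 with 25(OH)D, at least 17.6-fold higher than the control floor. Its neighbour PADI1 had at most 3 counts in any library. F13A1, the A subunit of coagulation factor XIII, had 0, 2 and 2 counts in control and 36, 26 and 22 with 25(OH)D. CHI3L1, a secreted chitinase-like glycoprotein, had 1, 2 and 1 counts in control and 22, 23 and 28 with 25(OH)D. TREM1, an activating receptor of myeloid cells, had 2, 2 and 2 counts in control and 12, 14 and 22 with 25(OH)D. Of the rows with control counts, TREM1 and RNU6-1083P had the lowest ratios, at 8.76 and 8.03.

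BPIFB6, of the BPI fold family, had 0, 2 and 2 counts in control and 22, 23 and 31 with 25(OH)D. The family member next to it, BPIFB2, went from 19, 27 and 27 counts to 710, 796 and 570, that is from 0.634 ± 0.155 to 19.5 ± 1.73 CPM (log2 fold change 4.95, SE 0.155, adjusted p = 8.29e-12). BPIFB4, 35596 bases away, had at most 4 counts in any library. The salivary amylase gene AMY1A had 0, 2 and 2 counts in control and 20, 19 and 29 with 25(OH)D. AMY1A shared 88.0% of its 100-base stretches with its copy AMY1B, so its counts are uncertain. AMY1B had 0, 0 and 0 counts in control and 20, 6 and 6 with 25(OH)D, and AMY1C had 2, 0 and 0 and then 8, 14 and 14.

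The other protein-coding rows are known mainly from nerve and muscle, or are little studied. CLCN1, the chloride channel of skeletal muscle, had 3, 0 and 0 counts in control and 63, 68 and 36 with 25(OH)D. NDST4, a heparan sulfate N-deacetylase and N-sulfotransferase, had 0, 0 and 0 counts in control and 36, 40 and 33 with 25(OH)D, with the smallest coefficient of variation of the 41. U82695.5, which GENCODE names PNMA6E, of a family derived from retrotransposons, had 2, 0 and 2 counts in control and 65, 62 and 62 with 25(OH)D. These 3 rows had means of 1.56, 1.03 and 1.79 CPM with 25(OH)D. HPCAL4, a neuronal calcium sensor, had 0, 0 and 0 counts in control and 24, 10 and 16 with 25(OH)D. IGSF21, an adhesion protein of synapses, had 0, 0 and 2 counts in control and 19, 13 and 22 with 25(OH)D.

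Some of the pseudogene rows have close relatives in the table. KRT16P3, a copy of the keratin 16 gene, had 0, 0 and 2 counts in control and 25, 56 and 64 with 25(OH)D and the largest coefficient of variation. It shared 49.0% of its 100-base stretches with other transcripts, most with KRT16P1, which had 8, 6 and 0 counts with 25(OH)D. KRT16 itself went from 14, 14 and 20 counts to 100, 118 and 110 (log2 fold change 2.89, SE 0.257, adjusted p = 7.14e-07). HNRNPA1P57 had 0, 0 and 2 counts in control and 20, 30 and 32 with 25(OH)D, while HNRNPA1 had a log2 fold change of −0.48 (adjusted p = 9.70e-08). HNRNPA1P57 held no 100-base stretch of another annotated transcript.

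Other rows lay inside larger genes. RNU6-1083P, a copy of the U6 small nuclear RNA, had 3, 1 and 2 counts in control and 15, 17 and 12 with 25(OH)D, and all its 107 bases lay in AVIL on the same strand. AVIL, which encodes the actin-binding protein advillin, went from 328, 311 and 319 counts to 960, 1009 and 840 (log2 fold change 1.68, SE 0.0774, adjusted p = 5.63e-10). The reads of the row cannot be told apart from those of AVIL. GOLGA2P6 had 0, 0 and 0 counts in control and 19, 11 and 11 with 25(OH)D and shared 1626 exon bases with MTPAP, the mitochondrial poly(A) polymerase gene. MTPAP had 438, 317 and 309 counts in control and 336, 328 and 306 with 25(OH)D, a log2 fold change of 0.01 (SE 0.113, adjusted p = 0.972). GRAMD4P7 had 0, 0 and 0 counts in control and 16, 12 and 17 with 25(OH)D and lay inside CXADRP3, which had 0, 0 and 0 and then 14, 16 and 8.

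RP11-725G5.3 lay in the span of CLMN on the opposite strand and shared no exon base with it. RP11-725G5.3 had 1, 0 and 2 counts in control and 17, 30 and 17 with 25(OH)D. CLMN encodes calmin, a membrane protein with an actin-binding domain, and is on the list of vitamin D receptor targets used here. It went from 793, 682 and 762 counts to 16474, 18079 and 15536, that is from 19.3 ± 1.35 to 472 ± 4.32 CPM (log2 fold change 4.62, SE 0.0525, edgeR adjusted p = 2.12e-16). Whether reads of unspliced CLMN RNA entered the row was not tested. RP11-725G5.2, a lincRNA now named LINC02292, lay beyond the upstream end of CLMN and had 3, 1 and 0 counts in control and 20, 31 and 24 with 25(OH)D. CTD-2240H23.2, in the same span, went from 18, 8 and 0 counts to 295, 353 and 228 (log2 fold change 5.18, SE 0.375, adjusted p = 8.28e-08). DICER1, the next gene downstream, was not called, with a log2 fold change of 0.50.

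The 5 rows not yet described were RP5-1182A14.5, RP11-21L23.4, LINC01085, RP1-60O19.1 and RP11-485F13.1. Their lowest count with 25(OH)D was 11, in RP11-21L23.4, and their highest was 48, in RP5-1182A14.5. RP5-1182A14.5, a lincRNA of 339 bases, had 0, 0 and 2 counts in control and 41, 48 and 22 with 25(OH)D. It lay 3828 bases from NBPF1, of the neuroblastoma breakpoint family, which went from 2030, 1876 and 1840 counts to 12316, 13897 and 12758 (log2 fold change 2.89, SE 0.0483, adjusted p = 1.44e-14).

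The positions of the 41 rows were not used by the rule, and the rows around them were compared by the test over the whole table. Within 100 kb of the 41 lay 170 other rows with 1 place in the genome and no exon base in common with them, and 73 of these passed the low-count filter. Of the 73, 28 were called higher, or 38.4%, at a log2 fold change over 1 and a p under 0.05, beside 4.02% of all rows tested. A further 2, ACKR3 and DLG2, were called lower, or 2.74%, beside 2.63% of all rows. The median log2 fold change of the 73 was 0.71, and that of all rows tested was −0.01. By adjusted p alone 39 of the 73 were higher, or 53.4%, beside 17.3% of all rows. In all 28, every library with 25(OH)D lay above every control library in CPM. The call itself selects for this, so the share of 22.8% over all rows tested, called or not, is no comparison. The low-count filter could be passed through the 25(OH)D libraries alone, as by MYBPH with 0, 5 and 3 counts in control. Such a row could enter only as a higher one, which holds for every share of tested rows given here. With no low-count filter 39 of the 170 were called higher, or 22.9%, and the share of all rows without it is not given.

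**Figure D3:**
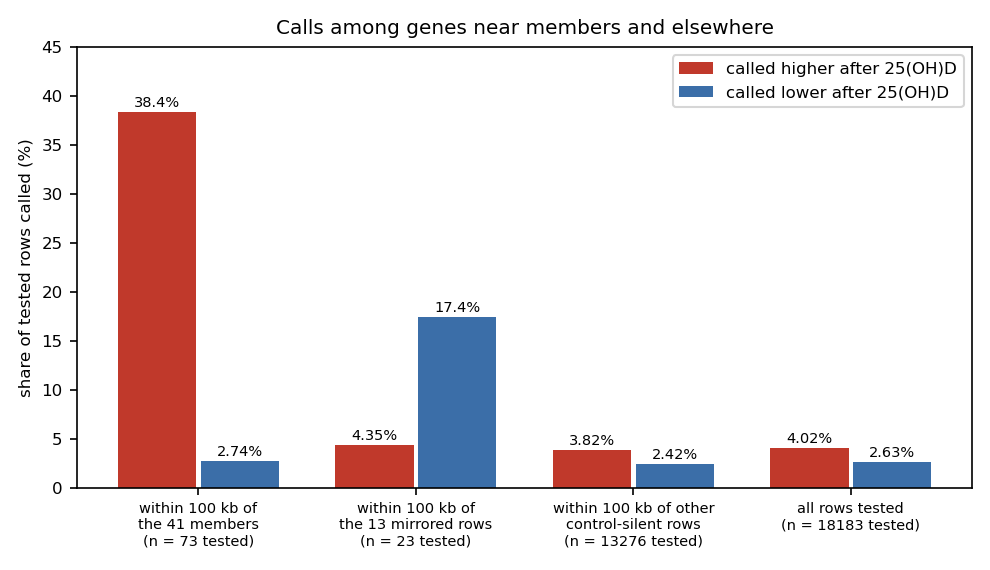
Share of tested rows called higher or lower with 25(OH)D, in percent, for rows within 100 kb of the 41 rows, of the 13 mirrored rows and of other control-silent rows, and for all rows tested. The bar for higher rows near the 41 stands at 38.4%, and that for all rows tested at 4.02%.

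Many of these neighbours were abundant. Of the 28, 18 had a mean of at least 10 CPM with 25(OH)D and 5 had a mean under 1 CPM. Some overlapped each other, such as TREX2 and HAUS7 or CTSD and RP11-295K3.1, and with rows that shared exon bases counted once, 21 of 54 were called higher. With each neighbour counted at its nearest row only, they stood at 12 of the 33 loci, while 23 loci had a tested neighbour at all. CLMN also lay within 100 kb of RP11-725G5.2, a locus of its own that is not among the 12. Other called neighbours lay inside the span of a row that was also higher, such as RP11-571M6.17 in AVIL and RP11-495O11.1 in CHST1. The 73 neighbours are thus not independent of each other.

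The largest differences were those of LGALS9B and BGN. LGALS9B, a galectin 9-like gene 33973 bases from KRT16P3, went from 8, 8 and 0 counts to 1039, 1216 and 900 (log2 fold change 7.72, SE 0.239, adjusted p = 7.06e-12). It is a near copy of LGALS9C, one of the rows left out by name, which had 2, 0 and 1 counts in control and 443, 547 and 415 with 25(OH)D, so the values of both are uncertain. BGN, the proteoglycan biglycan, went from 14, 9 and 18 counts to 1085, 1356 and 956 (log2 fold change 6.48, SE 0.159, adjusted p = 6.32e-13). BGN lay 93518 bases from U82695.5, with TREX2 and most of HAUS7 between them, each with a log2 fold change of 2.80. The zinc finger gene ZFP92, nearer to U82695.5 than these, had a log2 fold change of 0.85 (SE 0.115, adjusted p = 4.78e-05) and was not called.

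**Figure D4:**
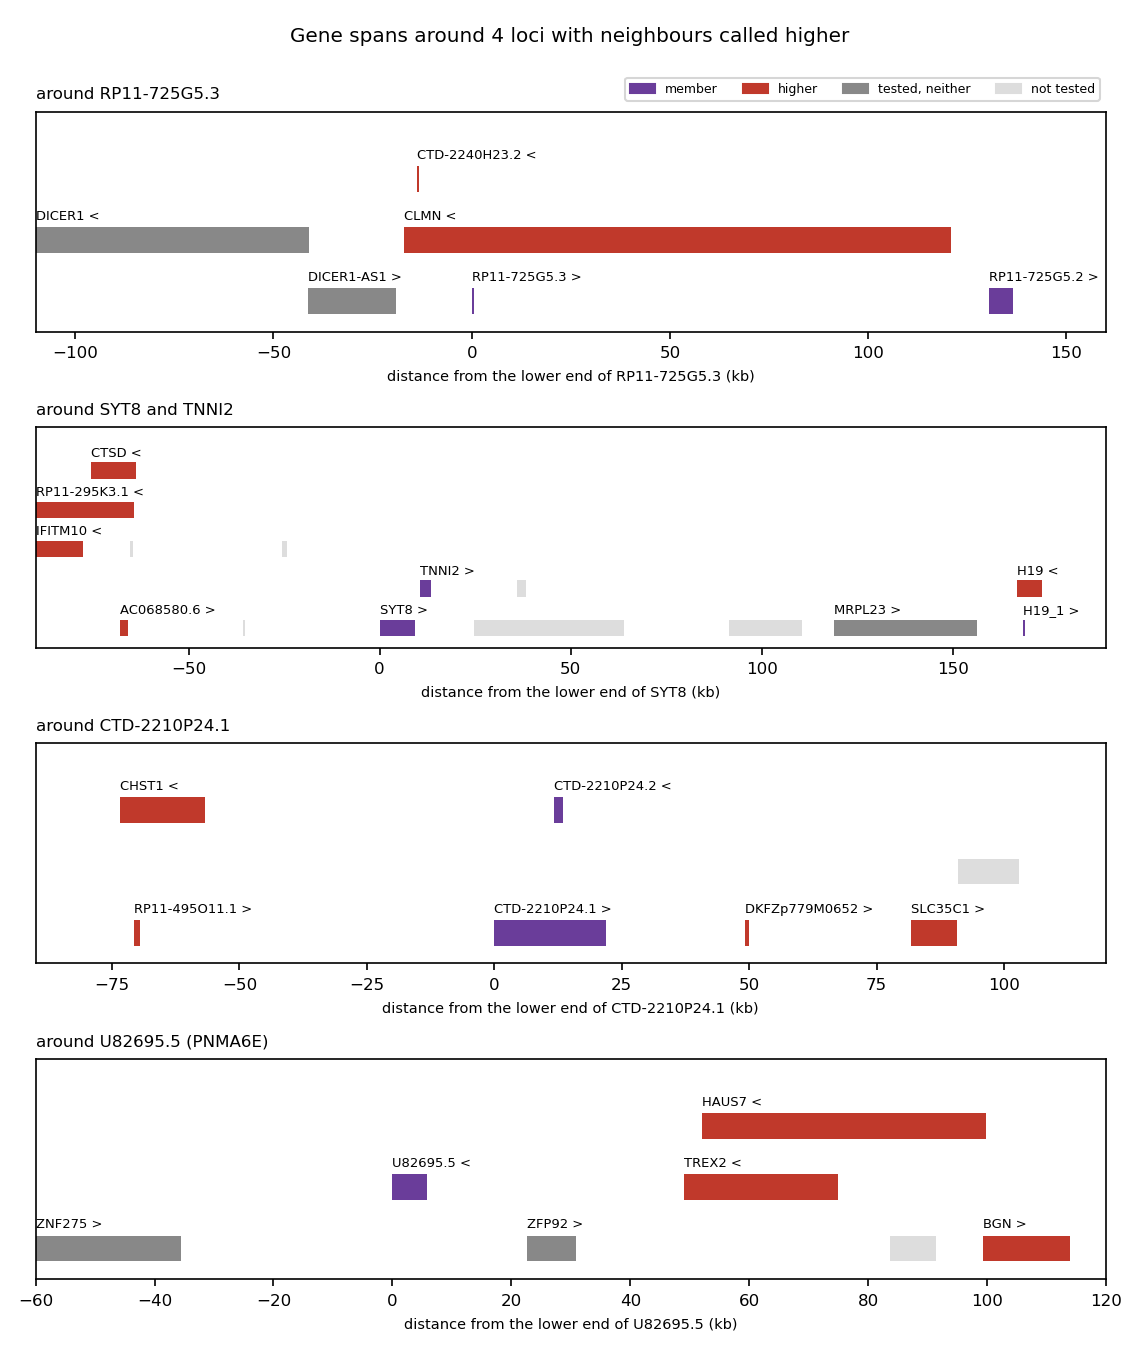
Gene spans around 4 of the loci, to scale in kb from the lower end of the row named above each panel, with arrowheads for the strand. Colours mark the 41 rows, other rows called higher, rows tested and not called, and rows not tested. CLMN, CTSD, CHST1 and BGN are among the rows called higher, and MRPL23, DICER1 and ZFP92 are among those not called.

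Further neighbours with at least 10 CPM stood at single loci. TSKU, the secreted leucine-rich protein tsukushi, lay 14027 bases from RP11-21L23.4 and went from 31.7 ± 1.61 to 193 ± 11.3 CPM, with RP11-21L23.2 higher beside it by 3.60 on the log2 scale. Near CLCN1 lay ZYX, the focal adhesion protein zyxin, with a log2 fold change of 2.80 (SE 0.141), and EPHA1, an ephrin receptor, with 1.33 (SE 0.0827). Near CHI3L1 lay the adenosine receptor gene ADORA1, which went from 27.4 ± 1.14 to 103 ± 1.75 CPM. MYBPH and CHIT1, the 2 other tested neighbours of CHI3L1, had log2 fold changes of 2.73 and 1.73 at means of 0.477 and 1.1 CPM with 25(OH)D. CHIT1 encodes another chitinase family protein, as does CHI3L1.

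Other loci had no neighbour called higher. None of the tested rows around IGHE, IQSEC3, CYP19A1, GOLGA2P6 and H19_1 was called higher, where H19 was not counted since it shares bases with H19_1. The loci of PADI3, KLK6, HSD3B1, F13A1, TREM1, NDST4 and 4 others had no tested neighbour, so they say nothing either way. Around RNU6-1083P, where 15 neighbours were tested, RP11-571M6.17 and RP11-571M6.18 were called higher. Both lay inside the span of AVIL on the opposite strand, and AVIL had a log2 fold change of 1.68. Whether reads of AVIL entered these rows was not tested. The vitamin D activating enzyme gene CYP27B1, 37167 bases from it, had a log2 fold change of −0.06 (SE 0.138, adjusted p = 0.761).

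**Figure D5:**
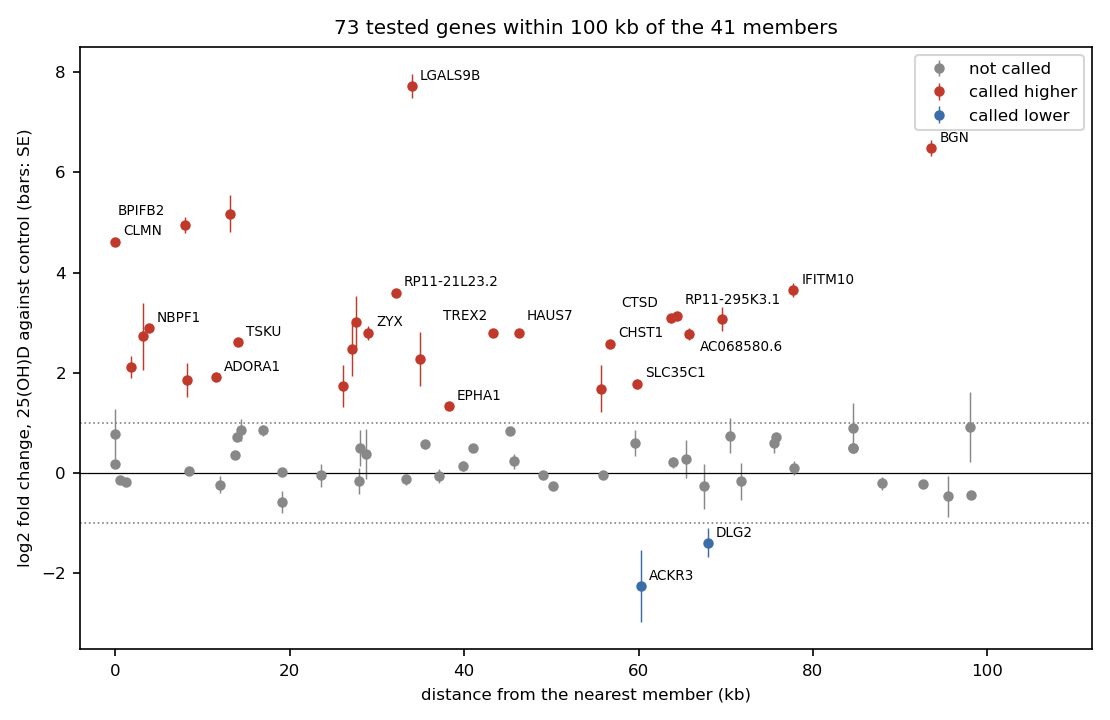
Log2 fold change of 25(OH)D against control with its SE for the 73 tested neighbours, against the distance in kb from the nearest of the 41 rows. Points above the upper dotted line and called higher run from 0 to 93518 bases, and the 2 called lower are ACKR3 and DLG2.

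Counted by row, 15 of the 41, or 36.6% (95% exact binomial interval 22.1% to 53.1%), had a neighbour called higher within 100 kb. The interval treats rows as separate although some share a locus. Among 9099 other rows with 3 counts or fewer in each control library the share was 8.61%, and 3.82% of their tested neighbours were called higher. Around the 13 mirrored rows, 4 of 23 tested neighbours, or 17.4%, were called lower and 1 was called higher. Within 10 kb of the 41 rows 6 of 11 tested neighbours were called higher, and within 500 kb 41 of 306, or 13.4%.

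Of 60 genes listed as vitamin D receptor targets from general knowledge, 54 were in the table, and KLK6 and PADI3 were among the 41. CYP24A1, another gene of the vitamin D pathway, was on the list but not in the table. Of the 37 others that were tested, 15 were called higher and 2 lower, and their median log2 fold change was 0.55. The share called higher was 40.5%, beside 4.02% of all rows tested, where 2.63% were called lower. The list was drawn up with earlier results of these data known, so this share is a description and not independent evidence. The smallest p among those higher was that of TRPV6, which went from 71.6 ± 1.63 to 792 ± 13.3 CPM (log2 fold change 3.47, SE 0.039, edgeR adjusted p = 2.12e-16). The smallest p in the other direction was that of TXNIP, at a log2 fold change of −0.56 (adjusted p = 1.88e-06), and the 2 called lower were PTHLH and MN1.

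RefSeq promoter windows, from 250 bases before to 50 after the gene start on GRCh38.p14, were matched for 17 of the 41 rows. The motif searched was a pair of hexamers in the same direction, 3 bases apart, on either strand. Each hexamer could be AGGTCA as the usual form, GGGTCA as a first variant, AGTTCA as another or GGTTCA as the last. It was found in 0 of the 17 windows and in 21 of all 27305 windows, or 0.0769%. With 1 mismatch it was again in 0 of 17, beside 1.38% of all windows. These letters are thus not in these windows, which says nothing about sites elsewhere. A single AGGTCA or AGTTCA on either strand was in 6 of 17 windows, or 35.3%, beside 22.8% of all windows, and the 6 were those of BPIFB6, CYP19A1, HPCAL4, HSD3B1, NDST4 and TREM1.

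The hexamers that lay before the gene start are shown within 30 bases each, read on the strand of the hexamer, with the hexamer in capitals. They were at chr15:51318585-51318614 for CYP19A1, chr1:119507069-119507098 for HSD3B1, chr1:39691587-39691616 for HPCAL4, chr20:33031498-33031527 for BPIFB6, and chr6:41286859-41286888 and chr6:41286707-41286736 for TREM1. All were on the strand of the gene except that of BPIFB6. The gene is on the minus strand for CYP19A1, HPCAL4 and TREM1 and on the plus strand for the others.
CYP19A1: ccaggaagattgAGGTCAcagaaggcagag
HSD3B1: gatgtaacccaaAGGTCActatttttctga
HPCAL4: gcgactccgggaAGGTCAgcgcgggcaggc
BPIFB6: tagactccagccAGTTCAgcaaacatgagc
TREM1, farther: aaggaaaactggAGTTCAaagaaacttaac
TREM1, nearer: tccgaagcctctAGGTCAttgtggtgcctt

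The hexamer ended 100 bases before the start in CYP19A1, 117 in HSD3B1, 166 in HPCAL4 and 133 in BPIFB6. The window of CYP19A1, chr15:51318448-51318747, lay inside the row, whose upstream end was at 51338610. In TREM1 the hexamers ended 189 and 37 bases before it. A match is a description, not a site. Promoter windows for IQCA1, SYT8, TNNI2 and IGHE were not used here.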

How the data were processed

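The authors deposited a table of counts (whole numbers of reads per row, not normalised) and a table of RPKM values for the same rows, with exon positions on GRCh38. RPKM recomputed from counts, row lengths and library totals gave the same values (largest relative difference 2.23e-13). The submitters' processing notes name Trimmomatic 0.36, Subread 1.5.1, featureCounts and edgeR 3.12.1; the aligner and annotation release are not given in the sources used here. Libraries were grouped by their labels, with 3 per group.

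The counts were tested with edgeR 4.0.16 in R 4.3.3 over 18183 rows that passed filterByExpr, with TMM factors, the quasi-likelihood test and no covariates. Rows were called at an absolute log2 fold change over 1 and p under 0.05, the limits of the study, and adjusted p-values are Benjamini-Hochberg over all rows tested. The coefficient of variation between libraries beyond counting error was 0.0788, and the labels do not state that the libraries came from separate cultures. In simulated counts the limit was an adjusted p under 0.05 alone, with none on the fold. It was passed by 95 of 96 rows changed 4-fold, 69 of 95 changed 2-fold and 6 of 17719 unchanged rows. Folds of the 41 rows are ratios of CPM with 95% counting intervals, or bounds against 3 counts per control library, worth a mean of 0.0776 CPM. Neighbours lay within 100 kb, shared no exon base with the 41 and had 1 place. Annotation and transcripts were those of GENCODE 29, matched by name or by at least 50% of exon bases.

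The 41 rows, the vitamin D receptor target, immunoglobulin and B cell and cell marker lists, and the tests were chosen with earlier results of these data known. Counts are given for the 12 rows with the highest CPM, for rows that share a locus or lie in another gene, and for protein-coding rows; other rows were named where their position or a relative called for it. Neighbours are named at 10 CPM or more or beside a row, and list genes by the smallest p in each direction. Alternatives used other normalisation, filters, DESeq2 1.42.0, limma 3.58.1 on log2(RPKM + 1) or log2(RPKM + 0.1), a replicate block, other limits and distances, and each library left out.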

Additional observations from a re-analysis of the deposited data

How the results depend on the processing

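The number of rows moved with the limits that chose them. It was 41 as described, 16 with a control ceiling of 0, 17 with 1 and 66 with 5. It was 76 with a 25(OH)D floor of 5, 27 with 20 and 12 with 50, and 27 without rows that share exon bases on either strand. With 1 library left out it lay between 46 and 58, since fewer libraries had to meet the limits. Scaled counts gave 39, and the 33 loci were 33 when joined within 10 kb, 29 within 1 Mb and 36 when joined only by shared exon bases. Of the 41 rows 22.0% lay inside another row's span and 9.76% did on the same strand. The mirrored rule gave 13 rows, 1 with a ceiling of 0 and 3 with a floor of 20.

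The 28 neighbours called higher were 6 within 10 kb, 41 within 500 kb, 21 with limma on log2(RPKM + 1), 26 on log2(RPKM + 0.1) and 28 to 32 without 1 library. DESeq2 and the other normalisations gave 28. With no low-count filter 39 of 170 were called higher, or 22.9%, in place of 28 of 73, or 38.4%, since 97 rows with few counts were added. The 2 called lower were 0 within 10 kb, 8 within 500 kb, 0 and 1 by limma with 1 and 0.1 added, 6 by adjusted p with no limit on the fold, and 2 without any 1 library. Counting rows that share exon bases once, which was chosen after seeing the data, gave 21 and 2. The share of the 41 with a higher neighbour was 36.6%, 14.6% at 10 kb and 41.5% at 500 kb, and that of other control-silent rows 8.61%, 2.68% and 25.2%. The hexamer search gave 0 windows for the repeat and 6 for a single hexamer.

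Same-numbered libraries did not deviate together (correlations −0.0721, −0.012 and −0.046). This gave no sign that the numbers pair the samples, but it cannot exclude that libraries were handled in matched sets. The replicate block gave 28 higher and 2 lower, as without it. Depth limits the rows under 1 CPM, where a difference of a few fragments decides membership.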
